A study of Mus musculus with 2 samples.

Results

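The cells described here were erythroblasts that had begun to make haemoglobin, recovered from the knee joints of control mice. They were selected on 3 transcripts in the control table only: Slc4a1 and Alas2 above 0 and Sox9 at 0. The rule took 740 of the 4903 control cells (15.1%, exact Clopper-Pearson 95% interval 14.1 to 16.1), out of 6243 cells in the series. The levels of Slc4a1, Alas2 and Sox9 are therefore given as a description of the choice. Each group was 1 droplet library pooled from several mice, so the values are descriptions without a test, and intervals on shares of cells cover counting error only.

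The control library came from Stat3fl/fl female mice of 1 month on a C57BL/6 background, in which both Stat3 alleles carried loxP sites and no Cre was present. The second library came from Acan-Cre+/Cre;Stat3fl/fl littermates, in which a tamoxifen-inducible Cre driven by the aggrecan promoter acts in cartilage cells. Pups were given tamoxifen by gavage in the first days after birth. For knee joint sections the paper names control Stat3fl/fl mice among those treated. It does not state separately whether the control mice of this library were treated. Knee joints were crushed and digested, and viable cells negative for CD31, Ter119 and CD45 were sorted before capture. The rule took 9 of 1340 cells in that second library (0.672%, 0.308 to 1.27), too few for a comparison of genotypes, and those 9 cells had a median of 1332 unique molecular identifiers (UMIs) per cell.

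Erythroblasts pass from dividing, ribosome-rich progenitors to small cells filled with haemoglobin. Haem is built from glycine and succinyl-CoA by a chain of enzymes beginning with ALAS2 in the mitochondrion, and needs iron that enters the cell with transferrin. Slc4a1 encodes band 3, the anion exchanger that anchors the spectrin skeleton under the red cell membrane, and Sox9 is the transcription factor that defines cartilage cells. The label of these cells was compared with 11 markers of haemoglobin-making erythroblasts, of which the 2 rule genes cannot check it. Each of the other 9 was at least 2-fold higher than in all other control cells, as were 9.66% of all genes compared. Over the other erythroid cells defined below, 8 of the 11 were at least 2-fold higher, the 2 rule genes among them, as were 1.85% of all genes compared.

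The 740 cells held a median of 5437 UMIs (quartiles 3899 and 7247, highest 21523) and 1959 detected genes. The other 4163 control cells held a median of 4082 UMIs. Median mitochondrial and ribosomal shares in the chosen cells were 3.03% and 29.3% of counts, against 2.78% and 13.7% in the others. Mitochondrial reads exceeded 5% in 59 of the 740. Scrublet, which scores cells against simulated doublets, marked 17 of the 740 (2.30%) and 57 of the 4163 others (1.37%). The control and mutant libraries shared 2 barcodes.

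Slc4a1 (chr11:102348824-102366203, minus strand, GRCm38) had between 0.355 and 30.8 estimated UMIs per chosen cell, with a median of 4.85. Alas2 (chrX:150547375-150570638, plus strand) had between 0.403 and 7.98, with a median of 1.95. The authors had subtracted an estimate of free RNA, and its part in the values below 1 UMI was not tested. Alas2 was the thinner of the pair: 344 chosen cells lay just inside the rule with about 1 UMI of Alas2, and 63 held about 1 UMI of both genes.

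The cells just outside the rule held globin too. In the 763 cells with Slc4a1 but no Alas2, globin made up a median of 0.530% of UMIs, against 1.31% in the chosen cells with about 1 Alas2 UMI and 1.93% in those with more. The 123 cells with Alas2 but no Slc4a1 had a median of 0.301%, although 1 of them, with globin at 62.8% of its UMIs, had the highest share in the library. Stromal or cartilage RNA, defined below, was present in 39.1% of the 763 cells and 41.5% of the 123. It was present in 14.5% of the chosen cells with about 1 Alas2 UMI. Among the 423 of the 763 cells with about 2 or more Slc4a1 UMIs, the median globin share was 0.89%. A further 26 cells held both transcripts and Sox9. Scrublet marked 8 of those 26, and Col2a1, the main cartilage collagen, stood at 14640.0 CPM (UMIs of a gene scaled to 1000000 UMIs of the group) in them, against 138 CPM in the chosen cells. The threshold thus separated cells whose globin shares overlapped, and at low counts it also depended on how deeply a cell was read.

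Cartilage cells gave the background of the rule. Among 1013 cells with Sox9 and Col2a1, at a median of 4975 UMIs, Slc4a1 was above 0 in 12.6% (10.7 to 14.8), Alas2 in 3.65% (2.59 to 5.0), and both in 1.78% (1.06 to 2.79). With every cell thinned to 2000 UMIs, Slc4a1 was seen in 78.5% of the chosen cells, in 26.4% of the other erythroid cells defined below and in 3.93% of the cartilage cells. At that depth 43 of the 740 chosen cells and 96 of the 1013 cartilage cells were too shallow and were left out.

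The sort had excluded cells with surface CD45, CD31 and Ter119. Ptprc, which encodes CD45, was seen in 5 of the 740 chosen cells (0.676%) and Pecam1, which encodes CD31, in 8 (1.08%). Transcript and surface antigen are not the same measurement. Markers of most other blood lineages were near 0: all 4 lymphocyte genes, 5 of 7 macrophage genes and 3 of 4 endothelial genes were at 0, and the summed levels were 4.75 CPM for macrophage and 1.08 CPM for endothelial genes. The 8 leukocyte genes summed to 53.3 CPM, of which the neutrophil gene S100a9 gave 34.8, all of it from 1 cell. Megakaryocyte markers went the other way, with a sum of 26.8 CPM against 14.3 CPM in all other control cells and 17.4 CPM in the other erythroid cells, and 112 of the 740 cells (15.1%) held a UMI of them. Of the 6 genes, Gp9, a platelet glycoprotein, gave 14.0 CPM and Vwf, von Willebrand factor, about 11 CPM, Pf4 and Itga2b were each below 1 CPM, and 2 were at 0.

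RNA of stromal and cartilage cells was present in a minority of the chosen cells. Of the 740, 90 (12.2%, 9.89 to 14.7) held any value of Col1a1, Col1a2, Col3a1, Dcn, Col2a1 or Acan, and 29 held at least 5 such UMIs. In those 29 the median depth was 8579 UMIs, 14 were marked by Scrublet and Col1a1, the main collagen of bone, stood at 10960.2 CPM. Of the 4163 others, 77.4% held such RNA. Values for the chosen cells without it are given for some of the genes compared between globin quartiles, and the other comparisons use all 740 cells.

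The 4 adult globin genes together took 1.75% of the UMIs of the chosen cells, against 0.419% in 444 other erythroid cells, which had Gata1 and Klf1 above 0, no Sox9 and were outside the rule. They took 0.0454% in the cartilage cells. Per chosen cell the share ran from 0 to 14.9% with a median of 1.63%, and 738 of the 740 held globin. The other erythroid cells had a median of 0.304% and a highest value of 4.65%, so the ranges overlapped. Those erythroid cells were deeper, with a median of 8117 UMIs, and lacked Slc4a1, Alas2 or both by the way they were defined.

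**Figure D1:**
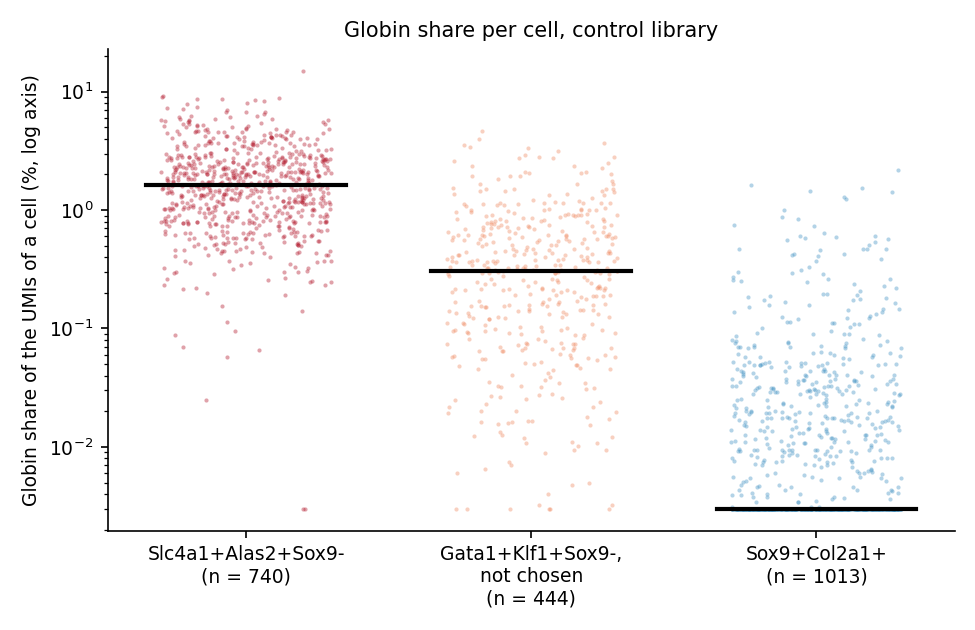
Globin share of the UMIs of each cell (percent, log axis) in the chosen cells, the other erythroid cells and the Sox9+Col2a1+ cartilage cells of the control library. Each point is a cell, bars are medians, and values below 0.003% are drawn at 0.003%. The medians were 1.63%, 0.304% and below the drawn floor, and the ranges of the chosen and other erythroid cells overlapped.

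The beta-globin genes Hbb-bs (chr7:103826534-103828096) and Hbb-bt (chr7:103812524-103813996, both minus strand, GRCm38) are the 2 adult beta chains of this strain. Hbb-bs stood at 9062 CPM in the chosen cells, 1906 CPM in the other erythroid cells and 210.4 CPM in the cartilage cells. Hbb-bt stood at 3986, 1083 and 115 CPM in the same order. The median chosen cell held 45.6 UMIs of Hbb-bs (highest 215) and 21.7 UMIs of Hbb-bt (highest 86.2). Both genes were thus higher in the chosen cells than in their nearest neighbours, and Hbb-bs by more.

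The alpha-globin genes Hba-a1 and Hba-a2, on chromosome 11, gave 3328 and 1095 CPM in the chosen cells and 912 and 285 CPM in the other erythroid cells. Hba-a1 and Hba-a2 are near-identical copies, so the split between them is uncertain and their sum is the safer value. The ratio of Hbb-bs to Hbb-bt UMIs was 2.27 in the chosen cells, 1.76 in the other erythroid cells and 1.83 in the cartilage cells. The ratio of beta to alpha UMIs was 2.95, 2.497 and 2.54. These ratios compare cells and not the amounts of protein, since genes may be captured unequally.

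Embryonic globins were seen in few cells. Hbb-y was above 0 in 15 chosen cells (2.03%) and Hba-x in 10 (1.35%). Hbb-bh1 was seen in 0 of the 740, which by the exact interval allows up to 0.497% of cells to hold a UMI and sets no limit on cells expressing the gene below the depth read. Bcl11a, the repressor that silences embryonic and foetal globin genes, was above 0 in 346 (46.8%).

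The promoters of the 2 beta-globin genes and of Alas2 are shown because Alas2 chose the cells and the beta-globin genes gave most of the globin UMIs. The 250 bases before the RefSeq start (GRCm38.p6) are given 5′ to 3′ on the strand of the gene. Capitals mark the GATA motif (AGATAA or TGATAA, bound by factors such as GATA1), the long CACCC box (CCACACCC) and the short CACCC box (CCACCC), both bound by KLF1 and its relatives, and the TATA box (TATAAA). The search used both strands, except for the TATA box, and neither CACCC box contains the other.

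Hbb-bs promoter, chr7:103827929-103828178, minus strand: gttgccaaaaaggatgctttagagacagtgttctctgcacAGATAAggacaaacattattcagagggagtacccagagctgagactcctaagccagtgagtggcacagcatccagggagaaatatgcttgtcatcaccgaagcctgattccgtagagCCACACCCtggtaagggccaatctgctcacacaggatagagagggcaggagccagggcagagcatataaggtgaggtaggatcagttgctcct

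Hbb-bt promoter, chr7:103813924-103814173, minus strand: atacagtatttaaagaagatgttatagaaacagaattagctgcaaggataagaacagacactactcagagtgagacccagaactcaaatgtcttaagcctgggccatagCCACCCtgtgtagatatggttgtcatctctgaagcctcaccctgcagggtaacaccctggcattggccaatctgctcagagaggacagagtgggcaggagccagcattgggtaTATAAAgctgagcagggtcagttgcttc

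Alas2 promoter, chrX:150547167-150547416, plus strand: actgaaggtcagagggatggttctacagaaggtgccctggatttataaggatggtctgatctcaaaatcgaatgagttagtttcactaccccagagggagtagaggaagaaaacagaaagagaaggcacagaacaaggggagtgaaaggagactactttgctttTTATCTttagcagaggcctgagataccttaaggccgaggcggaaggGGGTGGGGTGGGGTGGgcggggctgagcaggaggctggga

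In Hbb-bs the first base of the long CACCC box lay 93 bases before the start and that of the GATA motif 210 bases before. Hbb-bt held the short CACCC box at 141 bases and the TATA box at 28 bases. In Alas2 the GATA motif lay on the other strand 86 bases before the start, and the short CACCC box on the other strand at 40, 35 and 30 bases, the 3 matches overlapping in 1 run. Over all 32851 promoters of the table, 16.6% held a GATA motif, 3.20% the long CACCC box, 28.1% the short CACCC box and 7.59% the TATA box. A GATA motif was in 6 of 7 promoters of globin genes, 3 of 14 of haem synthesis genes and 8 of 23 of membrane genes that had an entry. A match is a run of letters and not a measured binding site.

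Most haem synthesis genes were higher in the chosen cells. A gene counted as called when its CPM (plus 1) differed at least 2-fold between groups, among genes of at least 10 CPM in either. Of all 8913 genes so compared with all other control cells, 9.66% were higher and 29.1% lower, with a median log2 ratio of -0.12. Of the 14 haem genes, 12 were higher and 1 lower, with a median log2 ratio of 1.58. The comparison cells themselves held erythroid cells, so the ratio to the 444 other erythroid cells is given beside it. There, 1.85% of 7080 genes were higher and 3.22% lower, and of 13 haem genes 2 were higher and none lower, the median log2 ratio being 0.48. Those 2 were Alas2, used by the rule, and Slc25a37. Against cells with none of Slc4a1, Alas2, Gata1 and Klf1, a set chosen after seeing the data, the median log2 ratios were 3.65 for haem genes, 3.83 for membrane genes, 3.24 for transcription factors, 3.18 for S phase and 3.07 for G2/M.

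Alas2 stood at 329 CPM in the chosen cells, 10.4 CPM in the other erythroid cells and 6.57 CPM in the cartilage cells, a contrast that the rule itself set. Its housekeeping counterpart Alas1 was low everywhere, at 6.66, 9.57 and 19.2 CPM. Slc25a37, which encodes mitoferrin-1, the carrier that brings iron into the mitochondrion for haem, stood at 328 CPM against 103.5 CPM in the other erythroid cells and 16.0 CPM in the cartilage cells. Its level was above 0 in 74.7% of the chosen cells (71.4 to 77.8). Slc25a37 was a named marker of these cells but no part of the rule.

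The enzymes after ALAS2 differed less from the other erythroid cells. Alad, which makes the pyrrole ring, stood at 477 CPM against 372 CPM. Uros and Urod, which close and decarboxylate the ring, stood at 96.0 and 264 CPM against 63.3 and 198 CPM. Cpox and Ppox, the oxidases of the next steps, stood at 674 and 150.2 CPM against 484 and 85.0 CPM. Fech, ferrochelatase, which inserts the iron, stood at 380.2 CPM against 204 CPM, a log2 ratio of 0.89. The later enzymes Ppox and Fech thus showed larger ratios than Alad, whose log2 ratio was 0.36.

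Transport genes of the pathway followed. Abcb10, a mitochondrial membrane protein that binds mitoferrin-1, stood at 367 CPM against 202 CPM in the other erythroid cells, and Tmem14c, needed for porphyrin import into the matrix, at 1189.6 against 886 CPM. Slc25a38, the glycine carrier that supplies ALAS2, stood at 70.2 against 58.3 CPM. Clpx, a mitochondrial chaperone that acts on ALAS enzymes, was the exception at 32.3 against 37.1 CPM.

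Alas2 messenger RNA carries an iron-responsive element near its 5′ end, a hairpin bound by the iron regulatory proteins when iron is scarce. In transcript Alas2-201 it lies at bases 87 to 109, read here from the Gencode M21 transcripts, with its loop in capitals: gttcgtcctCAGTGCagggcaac. Transcript counts do not report on translation through this element. The 2 genes of the proteins that bind it were at 17.1 CPM (Aco1) and 28.0 CPM (Ireb2) in the chosen cells, against 17.8 and 30.7 CPM in the other erythroid cells.

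**Figure D2:**
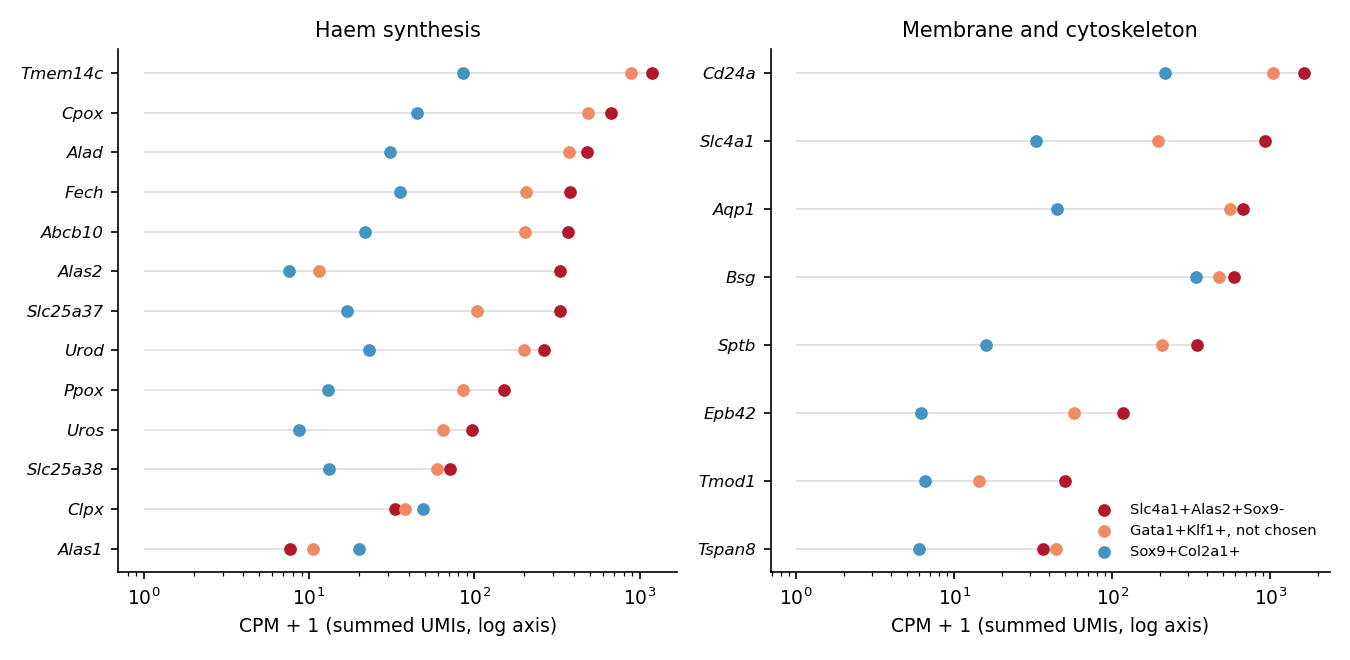
CPM plus 1 (log axis) of the haem synthesis genes and the membrane and cytoskeleton genes named in the text, in the chosen cells, the other erythroid cells and the Sox9+Col2a1+ cartilage cells. The chosen cells were highest for all genes shown except Alas1, Clpx and Tspan8, and Alas2 and Slc4a1, on which the cells were selected, showed the widest gaps to the other erythroid cells.

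Iron handling genes were mixed. Of 20 genes compared with all other control cells, 5 were higher and 2 lower, where 9.66% and 29.1% of all genes were, with a median log2 ratio of 0.33. Against the other erythroid cells none of 18 passed 2-fold in either direction. Tfrc, the transferrin receptor through which erythroblasts take up iron, stood at 894 CPM in the chosen cells, 599.6 CPM in the other erythroid cells and 207 CPM in the cartilage cells. Fth1 and Ftl1, the chains of the iron store ferritin, stood at 4560.4 and 1306 CPM against 2259 and 938 CPM in all others. Glrx5, needed for iron-sulphur clusters, stood at 492 against 193 CPM. Steap3 and Slc11a2, which reduce and carry iron after uptake, did not pass, at 95.1 and 60.3 CPM against 82.6 and 33.3 CPM. The 2 lower genes were Hmox1, which breaks haem down, at 0.953 against 32.5 CPM, and Trf, which encodes transferrin, at 0.852 against 29.1 CPM.

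Genes of the red cell membrane and its skeleton were high in nearly every member. Of 26 genes, 23 were at least 2-fold higher than in all other control cells and none lower, where 9.66% and 29.1% of all genes were. The median log2 ratio was 1.61. Against the other erythroid cells 4 were higher, Slc4a1 of the rule among them, and none was lower, where 1.85% and 3.22% of all genes were. The median log2 ratio was 0.53. Epb42, which encodes protein 4.2 and joins band 3 to ankyrin, stood at 117 CPM against 56.4 CPM in the other erythroid cells. Tmod1, which caps the short actin filaments of the membrane skeleton, stood at 49.5 against 13.4 CPM. The 4 genes with the most CPM in this list were Cd24a at 1642 CPM, Slc4a1 at 927 CPM, the water channel gene Aqp1 at 671 CPM and Bsg, which encodes basigin, at 586 CPM. Cd24a, a surface glycoprotein of immature blood cells, was at 1045.5 CPM in the other erythroid cells. Sptb, which encodes a spectrin of the membrane skeleton, stood at 342 CPM against 207 CPM. Tspan8, a tetraspanin, was the 1 member below its level in the other erythroid cells, at 35.3 against 43.3 CPM.

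Erythroid transcription factors were higher than in all other control cells but mostly level with the other erythroid cells. Of 21 genes, 12 were higher and 1 lower over all others, where 9.66% and 29.1% of all genes were. The median log2 ratio was 1.21. Over the other erythroid cells 1 was higher and none lower, where 1.85% and 3.22% of all genes were, with a median of 0.25. Klf1, which drives the adult beta-globin gene, stood at 248 CPM in the chosen cells and 262 CPM in the other erythroid cells, which had been picked for it. Gata1 stood at 129 against 193 CPM under the same condition. Zfpm1, the partner of GATA1, was at 365 against 296 CPM, and the repressor gene Zbtb7a at 206 against 173 CPM. Sox6 was the gene past 2-fold, at 320.1 CPM in the chosen cells, 149 CPM in the other erythroid cells and 134 CPM in the cartilage cells. The lower gene was Nfe2l1, a stress-response regulator, at 51.4 CPM against 199 CPM in all others.

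**Figure D3:**
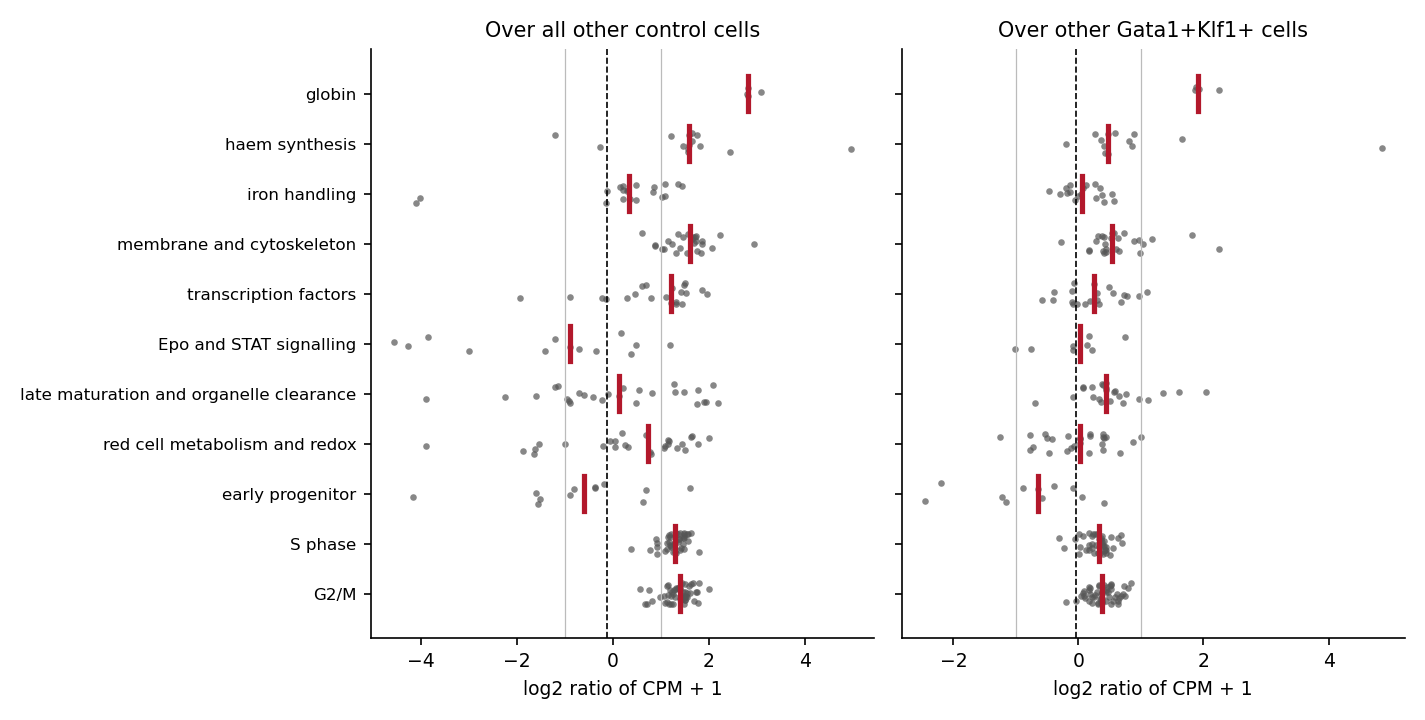
Log2 ratio of CPM plus 1 in the chosen cells over all other control cells (left) and over the other erythroid cells (right) for each gene of 11 lists. Points are genes of at least 10 CPM in either group, red bars list medians, the dashed line the median of all genes and grey lines 2-fold, and globin stood farthest to the right in both panels, at medians of 2.81 and 1.91.

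Most genes of erythropoietin and STAT signalling were at or below their level in the other cells. Of 13 genes, 1 was higher and 6 lower than in all other control cells, where 9.66% and 29.1% of all genes were. The median log2 ratio was -0.91. Epor, the erythropoietin receptor on which erythroblast survival depends, was the gene that was higher, at 27.1 against 11.3 CPM, and Jak2, its kinase, stood at 64.4 against 49.4 CPM. Mcl1 and Pim1, survival genes downstream of STAT5, stood at 102 and 31.6 CPM against 237 and 85.9 CPM in all others. In the other erythroid cells both were lower than in the chosen cells, at 91.0 and 18.4 CPM. Stat3, the gene floxed in both libraries, was at 9.45 CPM in the chosen cells and 8.90 CPM in the other erythroid cells, and was seen in 6.76% of the chosen cells (5.06 to 8.81) against 46.7% of the cartilage cells. Il6st, which encodes the gp130 receptor, was at 3.12 CPM against 96.6 CPM in all others and 3.92 CPM in the other erythroid cells. Against the other erythroid cells none of 8 genes was higher and 1, Stat5a, was lower, at 10.0 against 21.3 CPM, where 3.22% of all genes were lower.

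The list of late maturation and organelle clearance was mixed. Of 27 genes, 9 were higher and 5 lower than in all other control cells, where 9.66% and 29.1% of all genes were. The median log2 ratio was 0.12. Hemgn, a nuclear protein of erythroid cells, stood at 798 CPM against 488 CPM in the other erythroid cells, and Isg20, an exonuclease, at 269.6 against 179 CPM. Trim10, an erythroid tripartite-motif protein, stood at 145 against 66.6 CPM. Map1lc3b, which marks autophagosomes, was at 222 against 163 CPM, and Mkrn1, a ubiquitin ligase, at 171 against 119.5 CPM. The 5 lower genes over all others were Bnip3, Xpo7, Btg1, Rnf11 and Ube2h, from 2.16 CPM for Bnip3 to 75.3 CPM for Btg1. Alox15, the lipoxygenase of reticulocytes, and Rundc3a, a gene of late erythroblasts, were listed at 0 in all 740 cells. Alox15 was at 0 in all other control cells too, and Rundc3a stood at only 0.458 CPM there. Against the other erythroid cells 4 of 24 were higher and none lower, where 1.85% and 3.22% of all genes were, with a median log2 ratio of 0.45.

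Metabolic genes were mixed. Of 28 genes, 12 were higher and 5 lower than in all other control cells, where 9.66% and 29.1% of all genes were. Car2, a carbonic anhydrase, stood at 4039.8 CPM against 1498 CPM, Prdx2, which removes peroxide in red cells, at 2438 against 866 CPM, Gpx1 at 2322 against 923 CPM, and Blvrb, a biliverdin reductase, at 2202 against 716 CPM. Other redox genes did not pass, such as Cat, catalase, at 25.3 against 24.6 CPM and Gsr, glutathione reductase, at 31.7 against 33.4 CPM. The 5 lower genes were glycolytic or carried glucose: Ldha at 100 against 310.3 CPM, Eno1 at 37.7 against 140.0 CPM, Pgk1 at 33.8 against 108 CPM, Aldoa at 25.9 against 76.8 CPM and Slc2a1 at 0.192 against 16.8 CPM. Other glycolysis genes did not go that way: Bpgm, which makes bisphosphoglycerate, was higher at 35.5 against 16.6 CPM, and Pklr stood at 73.0 against 41.6 CPM. Against the other erythroid cells 1 gene was higher and 1 lower (Ldha, against 239 CPM), where 1.85% and 3.22% of all genes were.

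Genes of early progenitors were low beside the other erythroid cells. Of 12 genes, 1 was higher and 4 lower than in all other control cells, where 9.66% and 29.1% of all genes were. The median log2 ratio was -0.60. Against the cells with none of Slc4a1, Alas2, Gata1 and Klf1 that median turned to 0.39. Of 11 compared with the other erythroid cells none was higher and 4 were lower, with a median of -0.65, where 3.22% of all genes were lower. Kit, the stem cell factor receptor, was seen in 9 of the 740 chosen cells (1.22%, 0.558 to 2.30) and in 13.5% of the other erythroid cells (10.5 to 17.1), at 3.46 and 23.6 CPM. The cartilage cells, in which Kit was seen in 0.987%, put the chosen cells at background. Myb, which holds progenitors in proliferation, was at 10.7 against 53.0 CPM. Npm1 and Ncl, nucleolar proteins of ribosome assembly, stood at 738 and 1429 CPM against 1640.4 and 2634 CPM. Nucks1 stood at 450.2 against 432 CPM. Itga4, an integrin that binds erythroblasts to their macrophage niche, was the gene that went the other way, at 381 CPM against 125 CPM in all others. Depth moved in the direction of these genes, at a median of 5437 UMIs in the chosen cells against 8117 in the other erythroid cells. With every cell thinned to 2000 UMIs, Kit was seen in 0% of the chosen cells, 2.96% of the other erythroid cells and 0.436% of the cartilage cells. The part of depth in the other genes was not tested.

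Genes of S phase and G2/M were high in the chosen cells. Of 43 S-phase genes, 37 were at least 2-fold higher than in all other control cells and none lower, with a median log2 ratio of 1.29. Of 53 G2/M genes, 47 were higher and none lower, with a median of 1.40. Over all genes compared, 9.66% were higher and 29.1% lower. Against the other erythroid cells none of either list passed 2-fold, with medians of 0.34 and 0.38. Mki67, a chromosome coat protein of cycling cells, was seen in 99.6% of the chosen cells, 99.3% of the other erythroid cells and 19.0% of the cartilage cells. Its level was 3665 CPM in the chosen cells and 204 CPM in the cartilage cells. Hmgb2, a chromatin protein, stood at 4656 CPM, Top2a, the topoisomerase that separates chromosomes, at 945 CPM and Tubb4b, a tubulin, at 936 CPM, against 1721, 344 and 448 CPM in all others. Among S-phase genes, the ribonucleotide reductase genes Rrm1 and Rrm2 stood at 508 and 440.5 CPM, the histone mRNA binding gene Slbp at 607 CPM and the histone chaperone gene Nasp at 619 CPM, against 208, 126, 244 and 329 CPM.

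Over all genes of at least 100 CPM in the higher group, the 15 with the highest ratio to all other control cells included the 4 globin genes, Alas2, Slc4a1, Slc25a37, Trim10 and Epb42. A further 5 were Acp5, a phosphatase known from osteoclasts, at 190.2 against 40.4 CPM, Mgst3, a microsomal glutathione transferase, at 276 against 66.8 CPM, Nusap1, a spindle protein, at 417 against 104 CPM, and Pkhd1l1 and Btnl10 at 143 and 135 CPM. The 10 with the lowest ratio were genes of cartilage and bone matrix or Sox9 itself: Col9a3, Col9a2, Col9a1 and Col11a2, all cartilage collagens, Ibsp and Bglap of bone, and Smpd3, Mia and C1qtnf3. Apart from Sox9, at 0 by the rule, these stood between 0.0579 and 6.58 CPM, against between 193 and 986 CPM in the other cells. The rule left every cell with Sox9 in the comparison. The place of cartilage genes in this ranking is therefore not independent of the choice of cells. When the comparison cells held none of Slc4a1, Alas2, Gata1 and Klf1, 21.5% of 9510 genes were at least 2-fold higher and 37.1% lower.

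Within the chosen cells, the level of globin ordered a wider set of genes. The 740 cells were divided into 4 groups of 185, called quartiles here, by the globin share of their UMIs, with median shares of 0.595%, 1.26%, 2.05% and 3.73%. Other genes were then scaled to UMIs that were not globin, so that globin could not dilute them. From the lowest to the highest quartile, median depth ran 7062, 5840, 5466 and 4118 UMIs, and median detected genes 2362, 2058, 1941 and 1560.0. Cells with more globin thus held fewer UMIs and fewer genes. The quartiles are a range cut on 1 score and not cell types.

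Between the highest and the lowest quartile 2.5% of 7150 genes were at least 2-fold higher and 13% lower. The 8 lowest were Col1a2, Col1a1, Col3a1, Prg4, Fn1, Igfbp5 and Sparc, all made by stromal cells, and S100a9, which came from 1 cell. Col1a1 stood at 1281 CPM in the lowest quartile and 1.84 CPM in the highest, and stromal or cartilage UMIs were present in 43, 15, 14 and 18 of the 185 cells from lowest to highest. Without the 90 cells that held such UMIs, 650 cells remained, and 2.6% of 6918 genes were at least 2-fold higher and 10.6% lower. A log2 ratio in brackets below is for those 650 cells, and it lay close to the ratio before it. Other quartile values are for all chosen cells unless stated.

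Of 13 haem genes 2 were at least 2-fold higher in the highest than in the lowest quartile and none lower, with a median log2 ratio of 0.67. Those were Slc25a37 and Alas2. Over all genes compared, 2.5% were higher and 13% lower. Slc25a37 stood at 178, 287, 383 and 605 CPM from the lowest to the highest quartile, a log2 ratio of 1.76 (1.81). Slc4a1 stood at 481, 807, 1171 and 1634 CPM, a log2 ratio of 1.76 (1.64), and Alas2 at 209, 288, 363 and 581 CPM, a log2 ratio of 1.47 (1.54). Slc4a1 and Alas2 chose the cells, so each cell had to hold UMIs of both, and median depth declined over the same quartiles. Nothing is read from the climb of these 2 genes. Fech followed at 285, 327, 450.2 and 565 CPM. Summed over 14 haem genes the level went from 4229 to 7111 CPM.

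Of the globins, Hbb-bs had the largest change, from 2620.4 to 22744 CPM, a log2 ratio of 3.12 (3.001), against 2.43 (2.29) for Hbb-bt, 2.53 (2.41) for Hba-a1 and 2.63 (2.54) for Hba-a2. The quartiles were cut on the sum of these genes, of which Hbb-bs was the largest part, at 9062 of 17470 CPM in the chosen cells. The larger change of Hbb-bs and the 2 ratios below, which contain it, are therefore not free of the cut. The ratio of Hbb-bs to Hbb-bt UMIs was 1.63, 1.94, 2.33 and 2.61 from the lowest to the highest quartile. The ratio of beta to alpha UMIs was 2.46, 2.76, 3.06 and 3.11.

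Membrane genes were mostly higher in the highest quartile, 25 of 26 having a ratio above 0. Of these, 4 passed 2-fold, Slc4a1 of the rule among them, where 2.5% of all genes were higher. Tmod1 stood at 23.3, 44.5, 55.3 and 98.7 CPM, a log2 ratio of 2.04 (2.21). Cdc25b, the phosphatase that starts mitosis, went from 31.9 to 129.9 CPM, a log2 ratio of 1.99 (2.03), and Slc6a9, a glycine transporter of the plasma membrane, from 33.9 to 113 CPM, a log2 ratio of 1.71 (1.92). Tfrc went from 746 to 1245 CPM, a log2 ratio of 0.74 (0.72).

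**Figure D4:**
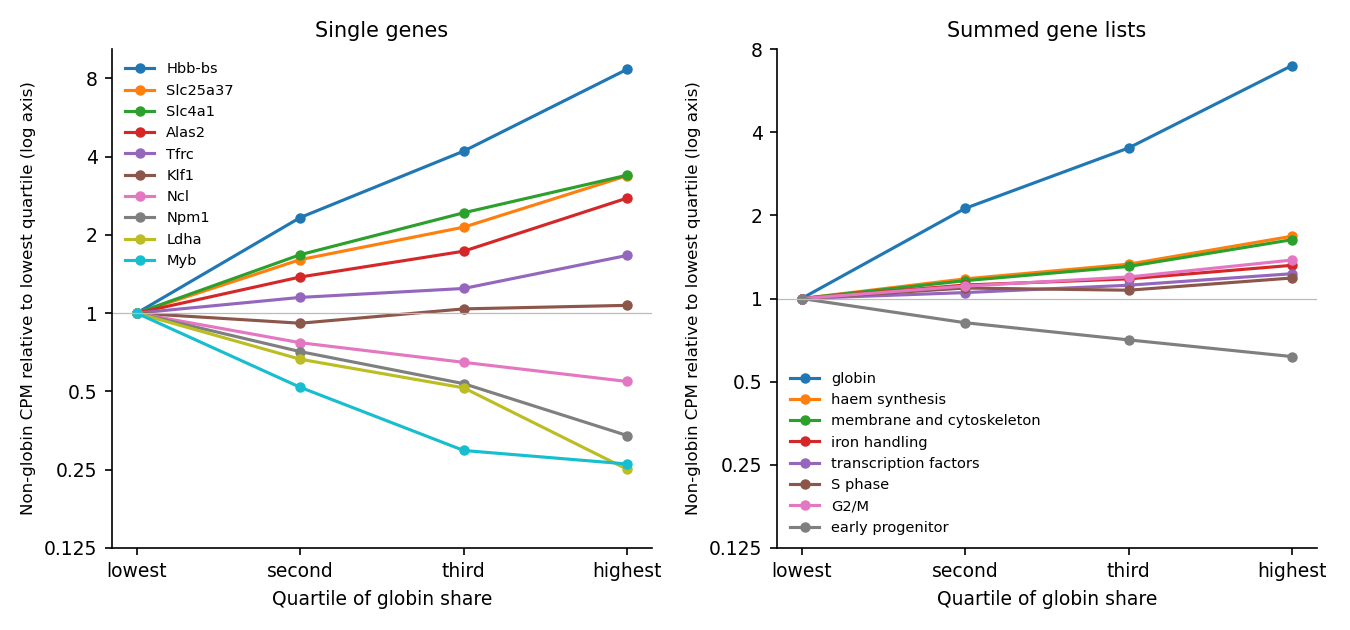
CPM over UMIs that are not globin, relative to the lowest quartile (log axis), in 4 quartiles of the chosen cells by globin share, 185 cells each, for single genes (left, CPM plus 1) and for summed gene lists (right). Slc25a37 and the rule genes Slc4a1 and Alas2 climbed and Ncl, Npm1, Ldha and Myb declined, while Klf1 stayed between 231 and 271 CPM.

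The transcription factors did not move as a block. Klf1 stood at 253, 231, 262 and 271 CPM, and Gata1 at 119.5, 123, 142 and 148 CPM, from the lowest to the highest quartile. Nfe2, which acts at the globin control region, went from 41.4 to 95.5 CPM, a log2 ratio of 1.19 (1.04), and Sox6 from 236 to 469.9 CPM, a log2 ratio of 0.99 (0.97). Bcl11a ran the other way at 176, 130.3, 119.8 and 96.3 CPM, and Ikzf1, a further regulator of globin switching, at 193, 169, 149 and 125 CPM.

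Of 10 early progenitor genes 3 were at least 2-fold lower in the highest quartile and none higher, with a median log2 ratio of -0.67. Of 27 metabolic genes 5 were lower and 3 higher, with a median of 0.15. Over all 7150 genes compared, 13% were lower and 2.5% higher, with a median of -0.16. Npm1 stood at 1088, 773, 582 and 367 CPM, a log2 ratio of -1.57 (-1.67), and Ncl at 1887, 1452, 1220.0 and 1029.6 CPM, a log2 ratio of -0.87 (-0.91). Ldha stood at 155, 103, 79.6 and 38.2 CPM, and Myb at 20.03, 9.90, 5.23 and 4.53 CPM. Among the 650 cells without stromal UMIs, and chosen after their values were seen, the genes with the lowest ratios of at least 100 CPM after S100a9 were Hspd1 (613 to 135 CPM), Lyar (165 to 38.1 CPM), Hspa9 (157 to 36.8 CPM) and Gnl3 (231 to 57.1 CPM). Hspd1 and Hspa9 are mitochondrial chaperones, and Lyar and Gnl3 are nucleolar proteins. Median ribosomal share, by contrast, was 29.8%, 30.0%, 29.9% and 27.7% over the quartiles of all 740 cells. Depth declined in the same direction as these genes. With the chosen cells thinned to 2000 UMIs that were not globin, which kept 694 of the 740, the log2 ratios were -1.46 for Npm1, -1.65 for Ldha, 1.69 for Slc25a37 and 1.71 for Slc4a1, a rule gene.

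Cell cycle genes did not decline with Npm1 and Ncl. The summed S-phase level was 8404, 9175, 9009 and 9976 CPM from the lowest to the highest quartile, a log2 ratio of 0.25, with none of 43 genes past 2-fold. The summed G2/M level was 17421, 19324, 20850.1 and 24017 CPM, a log2 ratio of 0.46, with 1 of 52 genes past 2-fold. Over all genes compared, 2.5% were at least 2-fold higher and 13% lower. Mki67 stood at 3273, 3551, 3911 and 4536 CPM. Among the 650 cells, the replication-dependent histone genes Hist1h4j, Hist2h2bb and Hist2h3b were among the 20 genes with the highest ratios, Hist2h3b going from 169 to 395 CPM.

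Over the 740 cells, the 5 genes of 2784 whose CPM was most like that of Slc4a1 by Spearman's rho were Hbb-bs (0.55), Hba-a1 (0.52), Hbb-bt (0.50), Hba-a2 (0.48) and Alas2 (0.46). Those most like Alas2 were Gm42418 (0.52), Slc4a1 (0.46), Hbb-bs (0.43), Hba-a1 (0.40) and Hbb-bt (0.39). The points share 1 library, and depth enters them: rho with total UMIs was -0.37 for Slc4a1 and -0.61 for Alas2. A single UMI is a larger share of a shallow cell than of a deep one. Gm42418 overlaps ribosomal RNA and stood at 18412 CPM in the chosen cells and 7918 CPM in the deeper other erythroid cells.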

How the data were processed

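Droplet libraries, 1 per genotype, were available as tables of 4903 control and 1340 mutant cells over 32245 genes. The authors trimmed reads and aligned them in Partek Flow with STAR 2.7.3a to mm10 with Gencode M25, collapsed UMIs, called cells, subtracted free RNA with SoupX, scaled to CPM and deposited log2(CPM + 1) values. The deposited tables also hold an expected count (the total of each cell, taken here as UMIs after SoupX), the mitochondrial and ribosomal percent of counts, and a score, the number of genes detected. The study states limits of 5% mitochondrial counts and 24000 counts, but cells over 5% remain in the tables. UMIs were estimated from each log2 value and the total count of the cell: 74.9% of those in the control table lay within 0.1 of a whole number, against 97.3% in the mutant table, so no count model or counting interval was applied to them.

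CPM was computed from UMIs summed over cells, ratios as log2 of (CPM + 1), for genes of at least 10 CPM in either group. The control library held 23576417 UMIs and the chosen cells 4353633 (18.5%). Cells of 1 library are not replicates, so values are descriptions with no test. Exact intervals are at 95%. The members and the gene lists (323 genes measured) were chosen with earlier results of these data known. Named were the rule genes and markers, all globin and haem genes, the 4 highest genes of each other list and any against its direction, the 15 highest and 10 lowest ratios, the 8 highest and 8 lowest between globin quartiles, and the 5 genes most like Slc4a1 and Alas2; further genes, such as Gata1, Stat3, Il6st, Kit, Myb, Tmod1, Hspd1 and the histone genes, were named after their values were seen. Some genes that the rule names are not reported here, though list counts and sums include them. Doublets were called by Scrublet in scanpy 1.11.5 (expected rate 0.05). The ratio code was tested on simulated data. Python 3.11.15 was used. Gene positions are from Gencode M21 (GRCm38).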

Additional observations from a re-analysis of the deposited data

How the results depend on the processing

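The choice of comparison cells changed most. Against the other cells with no globin UMI, 2196 genes were at least 2-fold higher (861 in the report), and the median log2 ratios were 11.83 for globin (set by how those cells were picked), 4.03 for haem synthesis, 4.34 for membrane, 3.36 for transcription factors, 1.62 for metabolism, 3.76 for S phase, 3.32 for G2/M and, with the sign turned, 0.31 for early progenitor genes; 9 iron, 2 signalling and 4 early progenitor genes were higher, and 2 transcription factors and 9 late maturation genes lower. Against cells with neither Slc4a1 nor Alas2, 1322 genes were higher, with medians of 4.67 for globin, 2.37 for haem, 2.32 for membrane, 1.90 for S phase and 2.02 for G2/M, and 2 transcription factors were lower. Against cells with none of 4 erythroid genes, chosen after seeing the data, 2044 were higher, with medians of 5.95, 3.65, 3.83, 3.24 (transcription factors), 1.53 (metabolism), 0.39 (early progenitors, sign turned), 3.18 (S phase) and 3.07 (G2/M); 8 iron, 2 signalling and 4 early progenitor genes were higher, and 2 transcription factors and 9 late maturation genes lower. These sets leave out erythroid cells by construction. With a pseudocount of 10 CPM 506 genes were higher, 3 iron and 0 signalling genes higher, and 0 haem and 3 late maturation genes lower. With a minimum of 50 CPM 543 genes were higher and 876 lower (2598 in the report), with 0 signalling genes higher and 0 haem, 0 iron, 3 late maturation and 2 early progenitor genes lower; with no minimum 5004 were lower, 1 G2/M gene among them. Both follow from the number of genes compared.

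The chosen share was 7.65% of cells at 2 or more UMIs of each rule gene (3 iron genes then higher), 30.7% on Slc4a1 alone, 17.6% on Alas2 alone, 16.2% within the study's limits and 7.91% (315 of 3980 cells) when cells were thinned to 2000 UMIs, so depth decides how many cells the rule can see. The globin share was 1.63% as a median over cells, 2.08% at 2 or more UMIs of each rule gene and 1.78% without doublets. A change over 1.5 times counted as moved, or, for shares, one outside the exact interval. In all, 423 of the 481 recomputed values that answer a comparison stayed within these limits, those between the globin quartiles among them. Of the values of single named genes 482 did and 179 moved, and no called value of a named gene changed sign. No paired analysis was possible because each group is 1 library.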
